A study of Mus musculus with 12 samples.

Results

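The gene set described here holds 28 mouse genes of cholesterol synthesis, its control and its targets under the transcription factor SREBP2. They were taken by symbol from a list of pathway enzymes, SREBP2 regulators and SREBP2 target genes, and all 28 were found among the 48526 genes of the count table. The list does not hold every gene of the pathway. Levels were measured by total RNA sequencing of bone marrow-derived macrophages (BMDMs), macrophages grown from mouse bone marrow for 6 d in medium conditioned by L929 fibroblasts, which supply the growth factor. The knockout (KO) mice were homozygous for a deletion of HSS9, also called TNF-9, an enhancer upstream of the cytokine gene Tnf, and the study asked whether this enhancer and its RNA could be targeted to lower TNF-driven inflammation. Cells were treated for 6 hr with LPS (lipopolysaccharide from the outer membrane of bacteria, a strong activator of macrophages) or with PBS alone, called untreated (UT). Each genotype gave 3 UT and 3 LPS libraries, all from male mice of 7 to 10 weeks. By the sample labels the wild-type (WT) mice were littermate controls, but by the study's methods C57BL/6 mice were purchased and the KO line was kept as homozygous pairs. Differences of background between the genotypes and effects of the deletion therefore cannot be told apart. The labels do not say whether replicates came from separate animals, so p-values measure the spread between these libraries.

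Cells make cholesterol from acetyl-CoA through mevalonate, farnesyl diphosphate, squalene and lanosterol, and farnesyl diphosphate is also the branch point to protein prenyl groups, ubiquinone and dolichol. SREBP2 is a membrane protein of the endoplasmic reticulum. When sterols are low, Scap escorts it to the Golgi, where it is cut and released to activate the genes of the pathway, and when sterols are high, Insig1 or Insig2 holds Scap and SREBP2 back. Macrophages are known to change their sterol metabolism after Toll-like receptor signals, in part through the oxysterol made by Ch25h, which acts on Insig proteins.

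All 28 genes passed the filter on low counts, and their lowest count in any library was 14. Library totals were 26154533 to 36423921 counts, of which the 28 genes took 0.109% to 0.110% in WT UT and 0.104% to 0.108% in KO UT, and less in WT LPS (0.0636% to 0.0710%) and KO LPS (0.0680% to 0.0704%), with no overlap between UT and LPS. CPM (the usual depth-normalized unit) are counts scaled to a common library size by TMM, and RPKM are CPM per kilobase of exon. TMM factors were 1.29 in each WT UT library, 1.15 to 1.18 in KO UT, 0.811 to 0.818 in WT LPS and 0.813 to 0.822 in KO LPS, so changes are relative to the bulk of genes and not to the total of counts. Scaled by library totals alone, the median log2 fold change of all genes was -0.62 for LPS in WT, -0.56 for LPS in KO and -0.15 for KO UT against WT UT. A gene is said to pass, and to rise or fall, where its edgeR quasi-likelihood adjusted p (Benjamini-Hochberg, over 15523 genes) was below 0.05. It is said to be called where its absolute log2 fold change was also above 1, as in the criteria of the study. Log2 fold changes in parentheses are given with their standard errors (±). Tnf, which reads out the deletion, was lower in KO than in WT with LPS (log2 fold change -1.04 ± 0.0604, adjusted p 2.76e-10 by edgeR) and without (log2 fold change -0.66 ± 0.0732, adjusted p 1.29e-06 by edgeR). Summed levels of 8 macrophage markers were 28532 to 29566 CPM in WT UT, 32729.9 to 33819.6 in KO UT, 24471 to 25977 in WT LPS and 27115 to 28778 in KO LPS, and those of 5 B cell, 5 T cell and 4 dendritic cell markers stayed below 10 CPM in every library. Replicates stood furthest apart in WT LPS, with chi-square over degrees of freedom of 11.2 to 41.8 for their 3 pairs, against 4.88 to 7.99 in KO LPS, 3.74 to 5.24 in WT UT and 6.96 to 13.4 in KO UT. In bulk samples, fewer cells of a type and less RNA per cell cannot be told apart.

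Where SREBP2 acts on a gene, it does so at sterol regulatory elements close to the start site, next to CCAAT boxes and GC boxes that bind NF-Y and Sp1. RefSeq promoter windows (GRCm38.p6) matched 23 of the 28 genes by symbol, all but Fdps, Fdft1, Sqle, Stard4 and Fads1. In the 250 bases before the start, the string TCACNCCAC, a strict form of the sterol regulatory element, was found on either strand in 1 of the 23 genes, Hmgcs1, against 1.22% of 27025 genes with a window. CCAAT was found in 19 of the 23, against 37.5% of all genes and 40.7% of the 9632 tested protein-coding genes. GGGCGG, the core of the GC box, was in 21, against 35.4% and 63.1%, and the E-box CACGTG was in 5 (Dhcr7, Hsd17b7, Insig1, Sc5d and Scap), against 6.86% and 9.82%. None of these strings contains another, and a gene with several windows was counted where any of them held the string. Of the 10 genes with a window that rose after LPS in WT, 9 held CCAAT, 8 the GC box, 2 the E-box and 1 TCACNCCAC. Of the 7 that fell, 5 held CCAAT, 7 the GC box, 1 the E-box and 0 TCACNCCAC. A match is a description of letters, and a missing match says nothing on binding.

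The upstream sequences of 7 genes are shown to set genes that rose after LPS beside genes that fell, with the transcription factor gene and its feedback target. They are given 5′ to 3′ on the strand of the gene, run to the RefSeq start or stop where an annotated exon begins, and have matches to the 4 strings on either strand in capitals. Srebf2 (chr15:82147019-82147180, plus strand), Hmgcs1 (chr13:119690101-119690350, plus strand) and Sc5d (chr9:42264301-42264550, minus strand) rose in both genotypes. Mvd (chr8:122443423-122443672, minus strand), Dhcr7 (chr7:143822917-143823144, plus strand) and Ebp (chrX:8193513-8193762, minus strand) fell in both genotypes, and Insig1 (chr5:28071162-28071362, plus strand) fell in KO. For Dhcr7, which has 3 windows, the bases shown hold a GC box, and its CCAAT and E-box matches are not within the bases shown.
Srebf2: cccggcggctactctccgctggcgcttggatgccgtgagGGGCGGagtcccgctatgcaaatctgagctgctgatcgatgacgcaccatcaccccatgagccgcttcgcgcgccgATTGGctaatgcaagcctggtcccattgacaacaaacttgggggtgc
Hmgcs1: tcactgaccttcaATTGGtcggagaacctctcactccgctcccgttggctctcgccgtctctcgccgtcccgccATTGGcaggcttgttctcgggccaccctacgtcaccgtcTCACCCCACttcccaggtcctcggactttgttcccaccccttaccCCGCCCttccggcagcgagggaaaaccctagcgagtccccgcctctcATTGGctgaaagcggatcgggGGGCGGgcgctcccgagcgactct
Sc5d: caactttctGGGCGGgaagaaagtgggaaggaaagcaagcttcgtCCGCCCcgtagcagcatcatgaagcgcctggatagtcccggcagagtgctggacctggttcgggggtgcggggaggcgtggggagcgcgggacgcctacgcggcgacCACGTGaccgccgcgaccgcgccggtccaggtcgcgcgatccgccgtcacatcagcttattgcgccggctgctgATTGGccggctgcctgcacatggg
Mvd: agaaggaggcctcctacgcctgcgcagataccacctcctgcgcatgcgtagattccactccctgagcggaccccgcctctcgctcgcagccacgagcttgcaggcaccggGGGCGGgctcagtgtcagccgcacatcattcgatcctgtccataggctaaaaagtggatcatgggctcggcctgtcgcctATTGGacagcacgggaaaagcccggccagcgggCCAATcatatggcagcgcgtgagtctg
Dhcr7: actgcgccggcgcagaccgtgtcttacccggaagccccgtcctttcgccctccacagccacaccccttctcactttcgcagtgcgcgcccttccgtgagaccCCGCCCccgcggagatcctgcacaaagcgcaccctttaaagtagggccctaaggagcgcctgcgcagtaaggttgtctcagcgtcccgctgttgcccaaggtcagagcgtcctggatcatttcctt
Ebp: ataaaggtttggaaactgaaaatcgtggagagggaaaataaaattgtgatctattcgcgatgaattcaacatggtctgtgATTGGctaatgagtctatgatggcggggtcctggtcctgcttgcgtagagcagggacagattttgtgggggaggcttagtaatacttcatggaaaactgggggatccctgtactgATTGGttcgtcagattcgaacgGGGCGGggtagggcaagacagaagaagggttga
Insig1: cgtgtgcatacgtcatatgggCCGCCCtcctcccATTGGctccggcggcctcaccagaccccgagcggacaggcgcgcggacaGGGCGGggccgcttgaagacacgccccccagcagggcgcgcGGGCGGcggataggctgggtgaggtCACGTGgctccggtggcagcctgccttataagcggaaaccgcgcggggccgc

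Levels per length in resting WT cells spanned a wide range along the pathway. Acly, which makes cytosolic acetyl-CoA from citrate, stood highest at 23.9 ± 0.306 RPKM (SD, n = 3), followed by Insig1 at 19.6 ± 0.530 RPKM and the fatty acid desaturase gene Fads1 at 16.6 ± 0.325 RPKM. Msmo1, Ebp and Hmgcs1 came next at 13 ± 0.201, 12.9 ± 0.444 and 12.2 ± 1.10 RPKM, and their libraries overlapped. Lbr at 7.96 ± 0.196 RPKM and Srebf2 at 7.91 ± 0.0959 RPKM also overlapped. At the low end stood Tm7sf2 at 1.08 ± 0.114 RPKM and Fdps, the farnesyl diphosphate synthase gene, at 0.470 ± 0.120 RPKM. Fdps shares 26.7% of its exon bases with the same-strand gene Gm43738, which had 0 counts in every library, and how shared reads were assigned is not stated. After TMM scaling, the summed level of the 28 genes was 846 ± 3.55 CPM in WT UT, 911 ± 8.0 in KO UT, 827 ± 42.2 in WT LPS and 842 ± 21.0 in KO LPS (SD, n = 3).

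**Figure D1:**
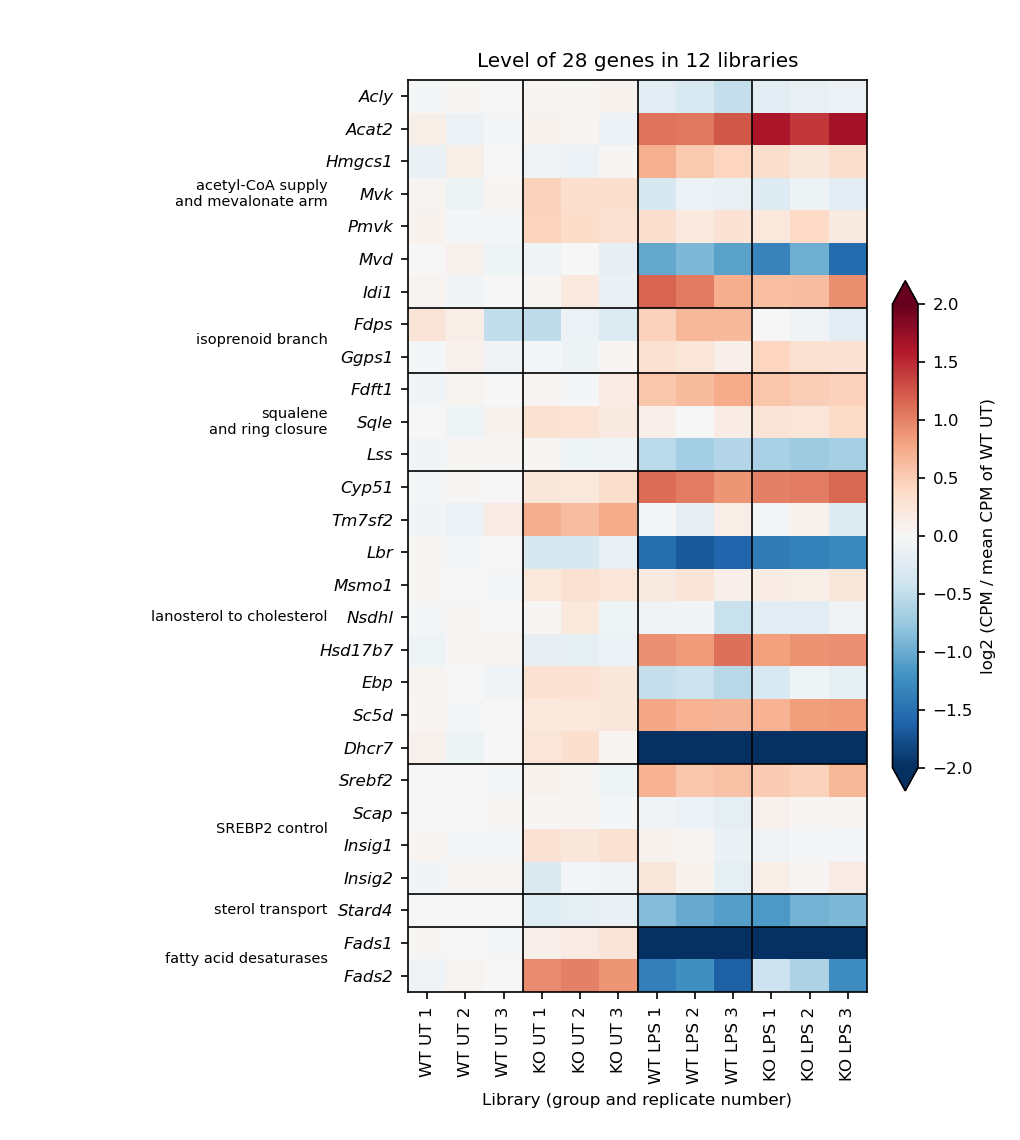
Level of each of the 28 genes (rows, ordered by role in the pathway) in each of the 12 libraries (columns), as log2 of CPM over the mean CPM of WT UT, with colors ending at -2 and 2. Dhcr7 and Fads1 are dark blue in all 6 LPS libraries, whereas Acat2, Cyp51, Hsd17b7 and Sc5d are red in them.

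In WT BMDMs the members moved in both directions with LPS, as did genes in general. The members that rose lay in the mevalonate arm, the isoprenoid branch, at squalene synthesis and at several steps after lanosterol, together with Srebf2 itself, whereas the final reductase gene Dhcr7, both fatty acid desaturase genes, Lbr, Mvd and the sterol carrier gene Stard4 fell. Of the 28 genes, 12 rose and 9 fell, which is 75% of them beside 73.3% of all genes tested (38.0% up and 35.3% down). Of these, 6 were called, which is 21.4% beside 37.8% of all genes. The share that passed was thus near the background, and the share called was below it. The median log2 fold change was 0.023, beside 0.047 over all genes, with a range of -3.38 to 1.13. Scaled by library totals, 4 members rose (Acat2, Cyp51, Idi1 and Hsd17b7) and 19 fell, beside 2990 and 9335 of all genes. The 3 WT LPS libraries did not overlap the 3 WT UT libraries for 24 members, beside 74.8% of all genes.

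The increases in WT were at most 2.19-fold. Cyp51, which demethylates lanosterol, had 30.7, 31.9 and 31.7 CPM in WT UT and 68.2, 64.2 and 58.2 in WT LPS (log2 fold change 1.02 ± 0.0667, adjusted p 8.07e-12 by edgeR). Idi1, the isomerase of the isoprene units, went from 7.72, 7.10 and 7.38 to 16.6, 15.1 and 12.3 CPM (log2 fold change 0.99 ± 0.120, adjusted p 1.93e-07 by edgeR). For both genes every LPS library lay well above every UT library. Hsd17b7, a reductase in the removal of methyl groups from the sterol ring, went from 7.98, 8.58 and 8.72 to 15.8, 15.3 and 18.0 CPM (log2 fold change 0.96 ± 0.0895, adjusted p 3.36e-09 by edgeR). Sc5d, which makes the substrate of Dhcr7, went from 26.3, 25.4 and 25.5 to 44.0, 41.5 and 41.2 CPM (log2 fold change 0.71 ± 0.0622, adjusted p 9.81e-10 by edgeR). The groups did not overlap for either. Fdft1, squalene synthase, rose from 15.3, 16.6 and 15.8 to 23.3, 24.6 and 26.6 CPM (log2 fold change 0.64 ± 0.0775, adjusted p 1.70e-07 by edgeR), although 18.3% of its exon bases overlap the much more abundant Ctsb on the other strand, and whether counting used the strand is unknown. Hmgcs1, the synthase at the entry to the mevalonate arm, rose from 50.8, 60.9 and 56.2 to 91.7, 80.8 and 75.5 CPM (log2 fold change 0.56 ± 0.0737, adjusted p 5.61e-07 by edgeR).

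Acat2, the thiolase that joins acetyl-CoA units, showed the largest increase, from 4.96, 4.21 and 4.51 CPM in WT UT to 9.65, 9.47 and 10.8 in WT LPS (log2 fold change 1.13 ± 0.115, adjusted p 1.28e-08 by edgeR). Its neighbor Acat3, named after its values were seen, is 96.1% identical over 1698 aligned transcript bases and rose from 0.0702, 0.110 and 0.213 to 15, 11.0 and 12.6 CPM, so the counts of the pair are uncertain. Counted as 1 gene, the pair rose in WT by a log2 fold change of 2.29 and in KO by 2.81. Pmvk, Msmo1, Fdps and Ggps1, the geranylgeranyl diphosphate synthase gene, rose less in WT, and these increases (log2 fold change 0.28, 0.18, 0.60 and 0.22) did not pass with upper-quartile scaling, which lowered the median of all genes by 0.18, put Msmo1 at -0.0013 and gave 8 members up and 13 down, beside 4930 and 6496 of all genes. Fdps also did not pass without WT UT replicate 3 (log2 fold change 0.40) and Ggps1 without WT LPS replicate 1 (0.17) or WT UT replicate 3 (0.18).

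The decreases in WT were deeper than the increases. Dhcr7, which reduces the final intermediate to cholesterol, was at 9.85, 8.65 and 9.21 CPM (421, 392 and 433 counts) in WT UT and at 0.820, 0.718 and 1.32 CPM (22, 16 and 28 counts) in WT LPS (log2 fold change -3.29 ± 0.195, adjusted p 1.41e-12 by edgeR). Fads1, a front-end desaturase of polyunsaturated fatty acids, went from 81.7, 79.5 and 78.7 to 8.05, 8.57 and 6.36 CPM (log2 fold change -3.38 ± 0.0848, adjusted p 2.80e-19 by edgeR). These amount to 9.78-fold and 10.4-fold lower levels, and no LPS library came near a UT library. Fads2, the partner desaturase, went from 3.51, 3.79 and 3.70 to 1.42, 1.57 and 1.18 CPM (log2 fold change -1.40 ± 0.197, adjusted p 1.73e-06 by edgeR). Lbr, a sterol reductase that is also the lamin B receptor of the inner nuclear membrane, went from 38.5, 36.8 and 38.3 to 13.3, 11.9 and 12.7 CPM (log2 fold change -1.58 ± 0.0761, adjusted p 3.31e-14 by edgeR). Both were lower in all 3 LPS libraries.

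Mvd, the decarboxylase that closes the mevalonate arm, had 9.38, 9.97 and 8.85 CPM in WT UT and 4.62, 5.03 and 4.48 in WT LPS (log2 fold change -1.0 ± 0.129, adjusted p 5.19e-07 by edgeR). Stard4, a cytosolic sterol carrier, had 27.8, 27.5 and 27.9 CPM in WT UT and 15.2, 13.8 and 12.9 in WT LPS (log2 fold change -0.99 ± 0.0812, adjusted p 3.90e-10 by edgeR). Lss, which closes the rings of lanosterol, the isomerase gene Ebp and Acly fell less, with log2 fold changes of -0.59, -0.48 and -0.33. Their ranges over the WT UT and WT LPS libraries were 21.0 to 22.1 and 13.6 to 15 CPM for Lss and 125 to 128 and 91.1 to 109 CPM for Acly. With the share of small structured RNAs in each library as a covariate, the change of Acly was -0.088 and did not pass. Neighboring steps differed in direction. Mvk and Pmvk, the kinases before Mvd, were at -0.20 (adjusted p 0.0863) and 0.28, and Idi1 after it rose. At the end of the pathway, Sc5d went from 5.29 ± 0.101 to 8.68 ± 0.319 RPKM, while Dhcr7, which uses its product, went from 1.59 ± 0.103 to 0.164 ± 0.0553 RPKM (SD, n = 3). Sqle, the squalene epoxidase gene, the sterol dehydrogenase gene Nsdhl, Scap, Insig1, Insig2, Mvk and Tm7sf2 did not pass in WT, with log2 fold changes of -0.20 to 0.088. Over the 4 groups, Sqle spanned 24.4 to 33.6 CPM, Nsdhl 6.88 to 10.8 CPM and Ggps1 21.8 to 31.4 CPM.

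Cell cycle genes and neutrophil markers moved with LPS as well. Of 10 cell cycle genes, 1 rose and 8 fell in WT (median log2 fold change -1.60), and 1 rose and 9 fell in KO (median -1.41). Of all genes, 35.3% fell in WT and 37.7% in KO. Of 8 neutrophil markers, 6 were tested, and they were mixed in direction. In WT, 2 rose and 3 fell (median log2 fold change -0.084), and in KO, 2 rose and 4 fell (median -2.10). The summed level of the 8 markers was 20.0 to 21.6 CPM in WT UT and 50.4 to 79.3 in WT LPS, and 42.5 to 47.9 in KO UT and 67.1 to 76.2 in KO LPS, with Ly6g at 0 in every library. That of 7 fibroblast markers was 3.77 to 4.49 CPM in WT UT and 2.12 to 4.32 in WT LPS, and 4.11 to 5.67 in KO UT and 7.13 to 8.49 in KO LPS. The part of these lists in the response of the pathway was not tested.

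**Figure D2:**
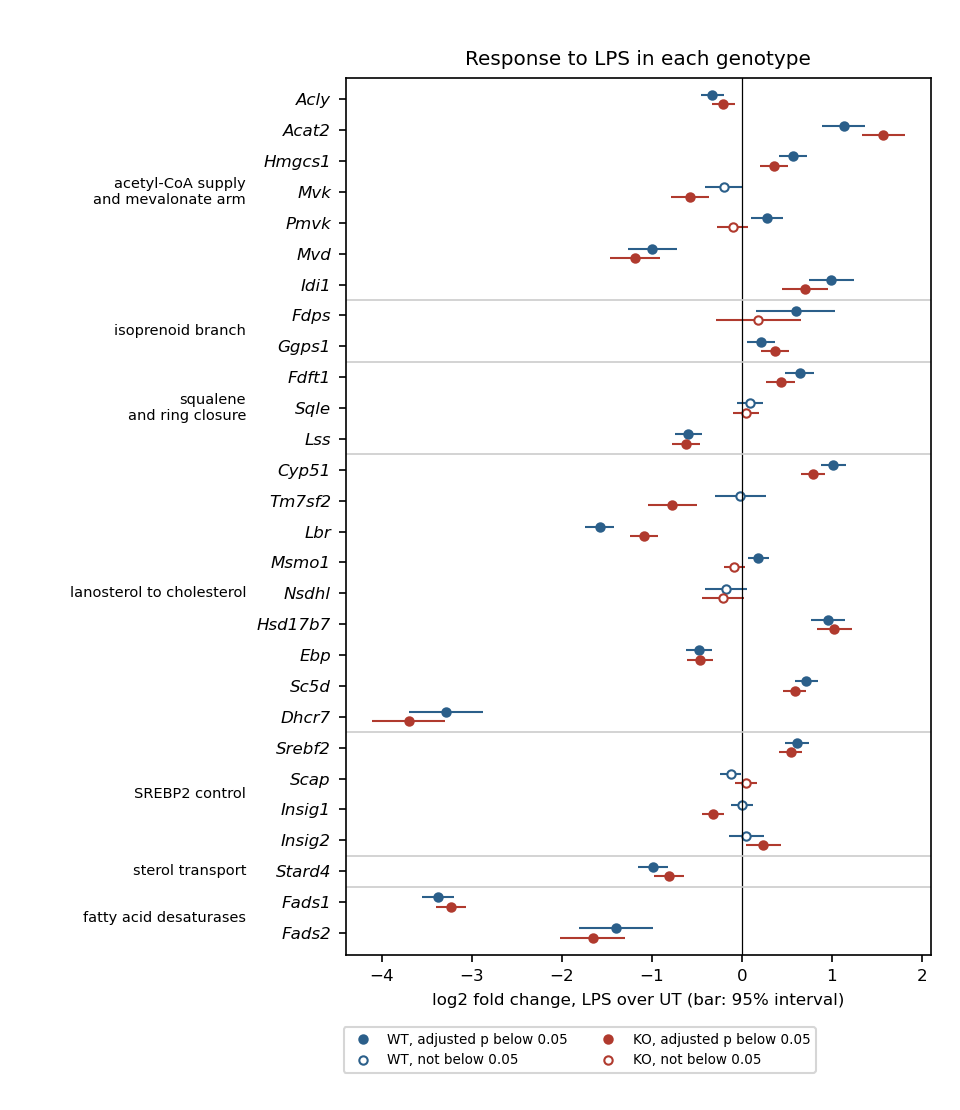
log2 fold change of LPS over UT for each of the 28 genes in WT (blue) and KO (red), with 95% intervals as bars and open points where the edgeR adjusted p was not below 0.05. Dhcr7 and Fads1 lie below -3 in both genotypes, and no gene that passed in both lies on opposite sides of 0.

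In KO BMDMs the members also moved in both directions, as did genes in general. Of the 28 genes, 10 rose and 12 fell with LPS, which is 78.6% beside 72.8% of all genes tested (35.1% up and 37.7% down), and 7 were called, which is 25.0% beside 37.0%. Libraries did not overlap for 22 members, beside 76.0% of all genes. The median log2 fold change was -0.094, beside -0.055 over all genes. Acat2, Cyp51, Fdft1, Ggps1, Hmgcs1, Hsd17b7, Idi1, Sc5d and Srebf2, 9 genes in all, rose in both genotypes. Acly, Dhcr7, Ebp, Fads1, Fads2, Lbr, Lss, Mvd and Stard4, also 9, fell in both, and 0 genes passed in opposite directions. Of all 15523 genes, 31.3% rose in both, 30.8% fell in both and 1.46% passed in opposite directions. The WT and KO responses come from separate libraries. With the small RNA share as a covariate, Idi1 (0.22), Ggps1 (0.076) and Hmgcs1 (-0.12) did not pass in KO. Scaled by library totals, 3 members rose in KO (Acat2, Cyp51 and Hsd17b7) and 18 fell, beside 3189 and 8947 of all genes.

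Dhcr7 and Fads1 showed the deepest decreases here too. Dhcr7 was at 10.9, 11.5 and 9.56 CPM (376, 392 and 378 counts) in KO UT and at 1.03, 0.901 and 0.512 CPM (27, 24 and 14 counts) in KO LPS (log2 fold change -3.70 ± 0.195, adjusted p 1.62e-13 by edgeR). Fads1 went from 86.1, 89.9 and 96.1 to 9.97, 10.1 and 8.93 CPM (log2 fold change -3.23 ± 0.0811, adjusted p 2.76e-19 by edgeR). Fads2 went from 7.03, 7.34 and 6.78 to 2.76, 2.40 and 1.54 CPM (log2 fold change -1.66 ± 0.174, adjusted p 2.11e-08 by edgeR). For these 3 genes every LPS library lay below every UT library. Mvd went from 8.96, 9.40 and 8.37 to 3.72, 4.77 and 3.22 CPM (log2 fold change -1.19 ± 0.132, adjusted p 5.07e-08 by edgeR) and Stard4 from 23.4, 24.4 and 25.4 to 12.5, 14.5 and 14.9 CPM (log2 fold change -0.81 ± 0.0812, adjusted p 1.06e-08 by edgeR). Among the increases, Acat2 went from 4.77, 4.76 and 4.22 to 14.1, 12.2 and 14.5 CPM (log2 fold change 1.57 ± 0.114, adjusted p 4.52e-11 by edgeR) and Hsd17b7 from 7.52, 7.46 and 7.79 to 14.8, 15.7 and 15.9 CPM (log2 fold change 1.03 ± 0.0914, adjusted p 1.46e-09 by edgeR). No KO LPS library of either gene overlapped a KO UT library. Cyp51 went from 36.9, 36.4 and 40.1 to 62.9, 63.6 and 69.5 CPM (log2 fold change 0.79 ± 0.0662, adjusted p 5.55e-10 by edgeR). Idi1 went from 7.49, 8.43 and 6.73 to 11.2, 11.4 and 14.1 CPM (log2 fold change 0.70 ± 0.123, adjusted p 2.92e-05 by edgeR). Sc5d went from 29.7, 29.7 and 30.1 to 41.7, 46.1 and 46.5 CPM (log2 fold change 0.59 ± 0.0617, adjusted p 2.23e-08 by edgeR). The groups did not overlap for these 3 genes either. Mvk and Tm7sf2 passed in KO and not in WT, with 12.2, 11.2 and 11.3 CPM in KO UT and 7.36, 8.26 and 7.54 in KO LPS for Mvk (log2 fold change -0.58 ± 0.101, adjusted p 2.59e-05 by edgeR), and a log2 fold change of -0.77 for Tm7sf2. With the covariate these changes were -0.29 and -0.65, and neither passed. For Mvk the difference between the responses did not pass (log2 -0.38, edgeR adjusted p 0.0784). Upper-quartile scaling, which lowered the median of all genes by 0.18 here too, gave 9 members up and 16 down in KO, beside 4587 and 7011 of all genes, and put Scap at -0.14, past the threshold, against 0.045 with TMM.

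The genes that control SREBP2 moved less than 2-fold. Srebf2 itself had 57.1, 57.3 and 56.0 CPM in WT UT and 92.4, 82.7 and 85.1 in WT LPS, a 1.53-fold increase relative to the bulk of genes (log2 fold change 0.61 ± 0.0624, adjusted p 1.33e-08 by edgeR). In KO it went from 59.3, 58.0 and 53.5 to 80.5, 78.3 and 89.7 CPM (log2 fold change 0.54 ± 0.0626, adjusted p 9.71e-08 by edgeR). In each genotype the LPS libraries lay above all UT libraries. Scaled by library totals the changes were -0.053 in WT and 0.033 in KO, and neither passed. Between the genotypes Srebf2 differed by 0.0030 without LPS (95% interval -0.13 to 0.13, edgeR adjusted p 0.982) and by -0.068 with LPS (-0.20 to 0.06, edgeR adjusted p 0.516). Insig1, which holds Scap back and is a target of SREBP2, had 62.5, 59.6 and 59.8 CPM in WT UT and 63.4, 62.7 and 55.4 in WT LPS (log2 fold change -0.0021 ± 0.0582, adjusted p 0.976 by edgeR), and these libraries overlapped. In KO it fell from 73.8, 70.7 and 75.3 to 57.9, 59.2 and 59.0 CPM (log2 fold change -0.32 ± 0.0580, adjusted p 4.34e-05 by edgeR). Insig2, the second anchor, had 20.5, 21.8 and 21.8 CPM in WT UT and 25.0, 22.4 and 18.8 in WT LPS (log2 fold change 0.049). In KO, Insig2 went from 17.4, 20.9 and 20.4 to 23.5, 21.8 and 23.9 CPM (log2 fold change 0.24 ± 0.0923, adjusted p 0.0267 by edgeR), which did not pass without KO LPS replicate 1 (0.22), KO LPS replicate 3 (0.21) or KO UT replicate 1 (0.16). The sign of this change turned with the small RNA share as a covariate and with scaling by library totals.

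Whether the deletion changed the response to LPS was tested as the difference between the responses, KO minus WT. It passed for 5 members, which is 17.9% beside 16.8% of all genes tested, a share near the background. The difference was positive for 1 of them and negative for 4, against 7.32% and 9.50% of all genes. No member differed by more than 1 on the log2 scale, beside 2.16% of all genes called. Tm7sf2 and Lbr, which encode reductases for the same bond of the sterol ring, differed in opposite directions. Tm7sf2 had 4.56, 4.37 and 5.32 CPM in WT UT, 7.84, 7.31 and 7.97 in KO UT, 4.66, 4.22 and 5.18 in WT LPS and 4.6, 4.99 and 3.95 in KO LPS (log2 fold change -0.75 ± 0.190, adjusted p 0.00878 by edgeR). Only the KO UT group stood apart for this gene. Lbr had 30.3, 30.4 and 34.3 CPM in KO UT and 14.2, 14.9 and 15.5 in KO LPS, a smaller decrease than in WT (log2 fold change 0.49 ± 0.107, adjusted p 0.00274 by edgeR). Tm7sf2 shares 12.1% of its exon bases with the same-strand gene Vps51 and Lbr 9.24% with Dnah14 on the other strand, which had at most 6 counts.

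Insig1, Pmvk and Msmo1, for which the difference was also negative, were at a higher level in KO UT than in WT UT, a value that is part of this difference. Insig1 differed by -0.32 (SE 0.0822, edgeR adjusted p 0.0103). Pmvk, phosphomevalonate kinase, had 13.5, 12.6 and 12.6 CPM in WT UT, 17.5, 16.6 and 15.9 in KO UT, 16.3, 14.7 and 15.7 in WT LPS and 14.9, 17 and 14.6 in KO LPS (log2 fold change -0.38 ± 0.119, adjusted p 0.0331 by edgeR). Msmo1, the oxidase that starts the removal of methyl groups, had 81.0, 79.8 and 78.5 CPM in WT UT, 92.2, 98.8 and 94.4 in KO UT, 90.4, 95.3 and 85.7 in WT LPS and 88.2, 87.5 and 93.3 in KO LPS (log2 fold change -0.27 ± 0.0784, adjusted p 0.0222 by edgeR). For both, the KO UT libraries lay above all WT UT libraries and the LPS libraries of the genotypes overlapped. Pmvk and Msmo1 did not pass with RLE scaling (-0.30 and -0.19), under which Acat2 and Scap passed and the split became 3 up and 2 down, beside 1982 and 1138 of all genes. Leaving out 1 library took the number of members from 5 to 3 without KO LPS replicate 1, KO UT replicate 2, WT UT replicate 2 or WT UT replicate 3. With the share of small structured RNAs in a library as a covariate, 3 members passed, namely Insig1, Cyp51 and Hmgcs1, beside 2.49% of all genes in that fit. Tm7sf2, Pmvk, Msmo1 and Lbr, which no longer passed, were at -0.55, -0.35, -0.41 and 0.083, and the median of the 28 differences went from -0.10 to -0.34. Scaled by library totals, 7 passed, 6 of them positive, beside 3165 positive and 918 negative of all genes. Tm7sf2 was at -0.59 and Lbr at 0.65 in that fit. The difference for Insig1 passed in each of the other alternatives and not with library totals (-0.16).

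**Figure D3:**
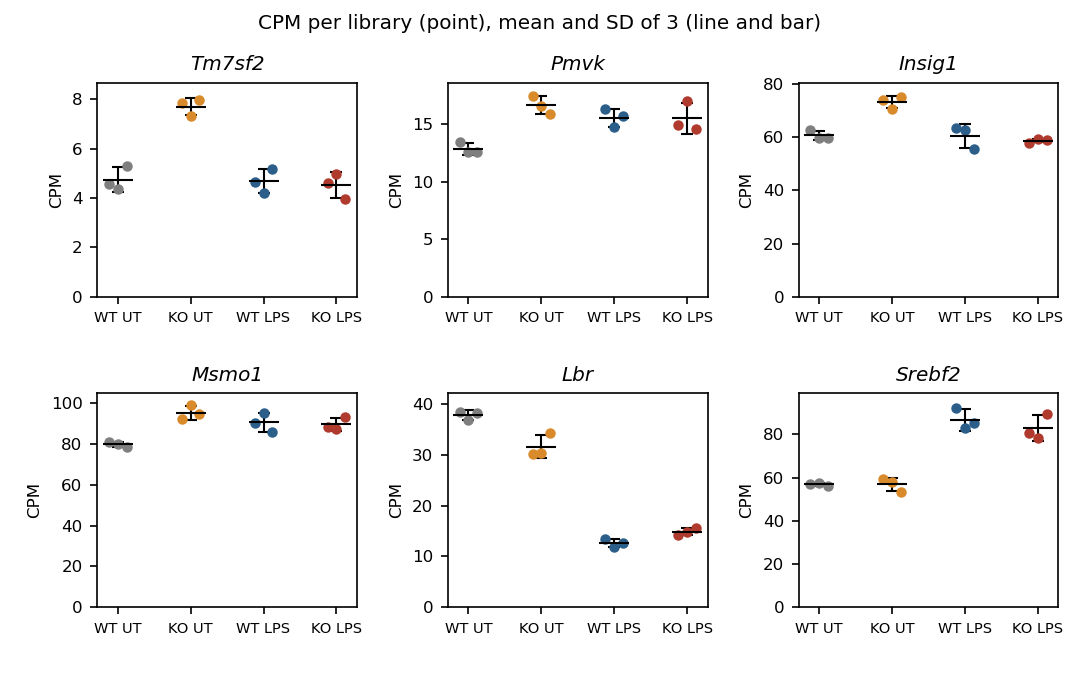
CPM in each library (points) with mean and SD of 3 libraries (line and bar) for the 5 genes whose response to LPS differed between genotypes, and for Srebf2. Tm7sf2, Pmvk, Insig1 and Msmo1 are highest in KO UT, Lbr is lower in KO UT than in WT UT, and Srebf2 overlaps between the genotypes in both treatments.

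Without stimulation, several pathway genes were slightly higher in KO BMDMs relative to the bulk of genes. Of the 28 genes, 10 were higher and 1 was lower in KO UT than in WT UT, which is 39.3% beside 23.8% of all genes tested. Over all genes, 14.1% were higher and 9.69% lower. This balance turned with the scaling. With RLE scaling, 1724 genes were higher and 2745 lower (members 9 and 2), and with library totals 1332 and 4425 (members 3 and 7, with Fads2, Tm7sf2 and Pmvk higher). Libraries did not overlap for 15 members, beside 40.8% of all genes. By role, 6 of the 9 genes after lanosterol passed, 2 of the 7 in the acetyl-CoA and mevalonate arm, 1 of 3 at squalene and ring closure, Insig1 among the 4 control genes, 1 of 2 desaturase genes, and neither Fdps nor Ggps1 nor Stard4. The median log2 fold change was 0.049, beside 0.0014 over all genes, and with RLE scaling -0.024 beside -0.070. The largest change was 0.94, so no member reached a fold change of 1 on the log2 scale, beside 1.82% of all genes called.

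Fads2 had 3.51, 3.79 and 3.70 CPM in WT UT and 7.03, 7.34 and 6.78 in KO UT, 1.92-fold higher (log2 fold change 0.94 ± 0.156, adjusted p 0.000111 by edgeR). Tm7sf2 was 1.62-fold higher (log2 fold change 0.70 ± 0.125, adjusted p 0.000243 by edgeR). The groups did not overlap for either gene. Mvk, mevalonate kinase, had 9.17, 8.23 and 9.10 CPM in WT UT and 12.2, 11.2 and 11.3 in KO UT (log2 fold change 0.39 ± 0.0952, adjusted p 0.00467 by edgeR). Pmvk, the next kinase, was higher by 0.37 (edgeR adjusted p 0.00177). Ebp, the sterol isomerase gene, had 30.8, 29.7 and 28.7 CPM in WT UT and 36.6, 36.4 and 34.9 in KO UT (log2 fold change 0.28 ± 0.0658, adjusted p 0.00357 by edgeR). For each of them, all 3 KO libraries lay above the WT libraries. Insig1, Cyp51, Sqle, Msmo1 and Sc5d were higher by 0.21 to 0.27, and Lbr differed by -0.26. Sc5d did not pass without WT UT replicate 2 or 3 (0.20 each) and with RLE scaling (0.14), and Sqle did not without WT UT replicate 2 (0.22).

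Other features of the libraries moved with the genotype without LPS. A set of 6 small structured RNAs took 6.51% to 7.70% of counts in KO UT and 2.92% to 3.16% in WT UT. This share did not overlap between the groups, so a fit that holds it separates share and genotype poorly. With the share as a covariate, 4 members passed instead of 11, namely Insig1, Cyp51, Hmgcs1 and Acly, while the share of all genes that passed went from 23.8% to 5.76%. The median log2 fold change of the 28 genes went from 0.049 to 0.31. Of the 9 members that no longer passed, Fads2 was at 1.02, with its standard error going from 0.156 to 0.613, Tm7sf2 at 0.57, Sc5d at 0.36, Pmvk and Msmo1 at 0.35 each, Ebp at 0.32, Sqle at 0.17, Mvk at 0.071 and Lbr at 0.011. The summed level of the neutrophil markers was 42.5 to 47.9 CPM in KO UT and 20.0 to 21.6 in WT UT. Of the 10 cell cycle genes, 5 were lower in KO UT and 1 was higher, beside 9.69% and 14.1% of all genes, with Mki67 at 34.7, 37.7 and 37.7 CPM in WT UT and 17.8, 17.9 and 20.7 in KO UT. The part of the markers and of the cell cycle genes in the differences was not tested.

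**Figure D4:**
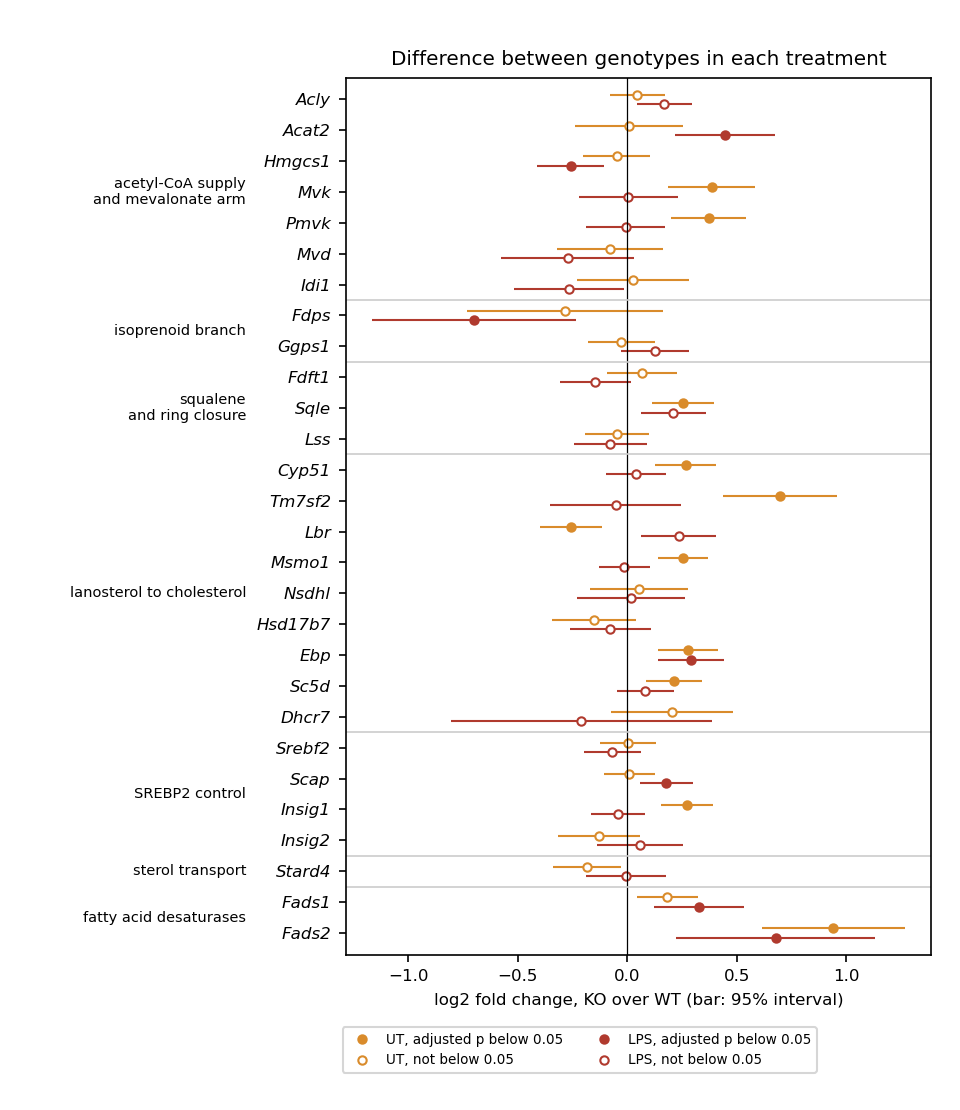
log2 fold change of KO over WT for each of the 28 genes without LPS (orange) and with LPS (red), with 95% intervals as bars and open points where the edgeR adjusted p was not below 0.05. All points lie between -1 and 1, Fads2 and Ebp are higher in KO in both treatments, and Fdps is the lowest point with LPS.

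After LPS, Acat2, both desaturase genes, Ebp and Scap were higher in KO, and Fdps and Hmgcs1 were lower. In KO LPS, 5 of the 28 genes were higher and 2 lower than in WT LPS, which is 25.0% beside 14.3% of all genes tested (7.78% higher and 6.54% lower). The largest change was -0.70, so no member reached 1 on the log2 scale, beside 1.25% of all genes called. The median log2 fold change was -0.00066, beside -0.0075 over all genes. Libraries did not overlap for 10 members, beside 29.1% of all genes. Acat2 had 9.65, 9.47 and 10.8 CPM in WT LPS and 14.1, 12.2 and 14.5 in KO LPS (log2 fold change 0.45 ± 0.110, adjusted p 0.00914 by edgeR), and Acat3 had 15, 11.0 and 12.6 CPM in WT LPS and 19.3, 19.8 and 19.1 in KO LPS. No KO value of either gene overlapped a WT value. Acat2 was the sole member whose difference passed in every alternative.

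Ebp had 21.6, 22.0 and 20.3 CPM in WT LPS and 24.0, 27.9 and 26.2 in KO LPS (log2 fold change 0.29 ± 0.0723, adjusted p 0.00984 by edgeR). Fads1 had 8.05, 8.57 and 6.36 CPM in WT LPS and 9.97, 10.1 and 8.93 in KO LPS (log2 fold change 0.33 ± 0.0988, adjusted p 0.0312 by edgeR), and Fads2 had 1.42, 1.57 and 1.18 CPM in WT LPS and 2.76, 2.40 and 1.54 in KO LPS (log2 fold change 0.68 ± 0.218, adjusted p 0.0419 by edgeR). The groups overlapped for Fads2 and not for the other genes. Scap, the escort of SREBP2, had 43.8, 42.4 and 40.3 CPM in WT LPS and 48.6, 46.6 and 48.0 in KO LPS (log2 fold change 0.18 ± 0.0578, adjusted p 0.0443 by edgeR). Hmgcs1 had 91.7, 80.8 and 75.5 CPM in WT LPS and 71.1, 65.8 and 70.6 in KO LPS (log2 fold change -0.26 ± 0.0743, adjusted p 0.0236 by edgeR), and Fdps had 2.72, 3.14 and 3.11 CPM (73, 70 and 66 counts) in WT LPS and 1.95, 1.88 and 1.68 CPM (51, 50 and 46 counts) in KO LPS (log2 fold change -0.70 ± 0.224, adjusted p 0.0412 by edgeR). Both genes were lower in every KO library. The decreases with LPS of Dhcr7, Mvd and Stard4 did not pass as different between genotypes, with intervals for the difference of -1.07 to 0.24, -0.58 to 0.19 and -0.06 to 0.42 on the log2 scale.

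The number of members that differed after LPS changed with single libraries. It was 1 without KO LPS replicate 2, 2 without KO LPS replicate 1, 3 without WT LPS replicate 2, and 4 without KO LPS replicate 3 or without WT LPS replicate 3. Of all genes, 8.84% to 9.60% passed when 1 of these 5 libraries was left out, against 14.3% with all libraries, and the share was 20.3% without WT LPS replicate 1. Ebp did not pass without KO LPS replicate 2 (0.24), Fads1 without KO LPS replicates 1 or 2 (0.30 each) or WT LPS replicate 3 (0.22), and Hmgcs1 without any 1 of the KO LPS libraries or WT LPS replicates 1 or 2 (-0.28 to -0.18). Fdps did not pass without any 1 of the KO LPS libraries or WT LPS replicates 2 or 3 (-0.74 to -0.64), Fads2 without 8 of the 12 libraries (0.50 to 0.77) and Scap without 9 (0.15 to 0.20). The 8 for Fads2 were KO LPS replicates 1 and 2, KO UT replicates 1 and 2, all 3 of WT LPS and WT UT replicate 3, and the 3 that Scap could spare were KO UT replicates 1 and 3 and WT LPS replicate 1. With the replicate number as a block, 4 members passed, since Fads2, Fdps and Scap did not, and in a fit of the compared groups alone 4 passed, since Fads1, Fads2 and Scap did not. The small structured RNAs took 3.15% to 3.29% of counts in KO LPS and 3.93% to 6.72% in WT LPS, and with this share as a covariate 2 members passed, Acat2 and Hmgcs1, beside 8.86% of all genes. Fads2, Fdps, Ebp, Scap and Fads1, which no longer passed, were at 0.63, -0.48, 0.27, 0.11 and 0.092. The summed level of the fibroblast markers was 7.13 to 8.49 CPM in KO LPS and 2.12 to 4.32 in WT LPS, that of the neutrophil markers was 67.1 to 76.2 and 50.4 to 79.3 CPM, and their part in the differences was not tested.

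Genes around the pathway, from 5 lists, gave context for the response to LPS. Fatty acid synthesis and SREBP1 genes mostly fell, with 2 of 11 up and 8 down in WT, 1 up and 9 down in KO, beside 38.0% up and 35.3% down of all genes in WT and 35.1% and 37.7% in KO. Their medians were -1.38 and -0.75. Fasn, fatty acid synthase, had 41.7, 36.6 and 37.4 CPM in WT UT and 13.3, 14.4 and 10.5 in WT LPS (log2 fold change -1.59 ± 0.0931, adjusted p 1.03e-12 by edgeR). Lpin1, a phosphatidate phosphatase of lipid synthesis, fell most, from 22.8, 20.4 and 22.8 to 0.149, 0.539 and 0.236 CPM. Srebf1, which encodes SREBP1, had log2 fold changes of 0.13 in WT (0.0473 as adjusted p of edgeR) and -0.019 in KO (0.765). Ch25h, whose product restrains SREBP2, rose from 0.491, 0.463 and 0.106 to 203, 227 and 209 CPM in WT and from 0.347, 0.294 and 0.531 to 153, 177 and 164 in KO, with log2 fold changes of 9.24 and 8.68. Of the 3 tested genes of the oxysterol list, 1 rose and 1 fell in WT, and 1 rose and 2 fell in KO.

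The remaining lists were mixed in direction. Of 8 genes for SREBP cleavage, sterol-regulated degradation and electron supply, 3 rose and 4 fell in WT and 4 rose and 4 fell in KO. The largest change among them was that of Rnf139, a ubiquitin ligase of the endoplasmic reticulum, at 0.97 and 1.10. Of 11 genes that use the isoprenoid branch, 5 rose and 3 fell in WT, and 5 and 5 in KO. Pdss1, which makes the side chain of ubiquinone, moved most (2.26 and 2.02). Of 8 genes for sterol handling and esterification, 3 rose and 4 fell in WT, and 4 and 4 in KO, with the cholesteryl ester hydrolase gene Nceh1 at -3.42 and -3.56. Between genotypes without LPS, 2 of 11 fatty acid genes, 1 of 8 cleavage genes, 1 of 11 isoprenoid genes, 1 of 8 sterol handling genes and 0 of 3 oxysterol genes passed, beside 23.8% of all genes. With LPS the numbers were 4, 3, 1, 1 and 1, beside 14.3%.

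**Figure D5:**
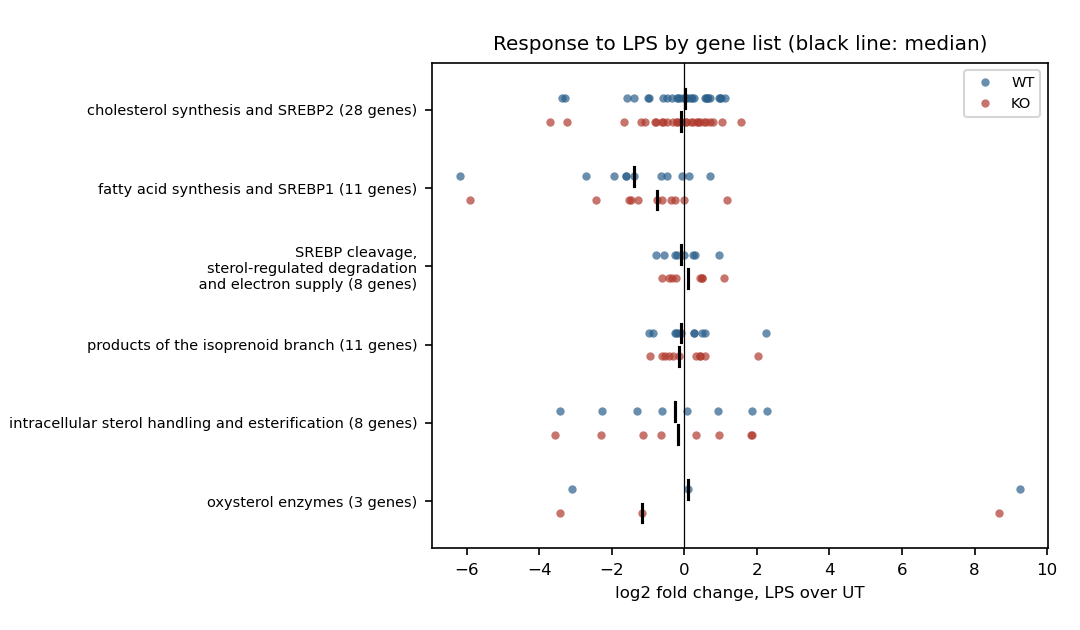
log2 fold change of LPS over UT for the genes of 6 lists (points) in WT (blue) and KO (red), with the median of each list as a black line. The cholesterol genes lie on both sides of 0 with a median close to it, whereas most fatty acid synthesis genes lie below 0 and Ch25h lies above 8 in both genotypes.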

How the data were processed

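Total RNA of 12 BMDM libraries was prepared with a stranded globin-depletion kit and sequenced as paired ends. The authors aligned reads to GRCm38 with HISAT2 2.1.0 and counted them per gene with featureCounts 2.0.0, after FastQC 0.11.9 and SAMtools 1.17, and deposited raw counts per gene for all libraries in 1 table. The annotation release, strand setting and treatment of multi-mapping reads are not given in the sources used here, so overlapping genes and near-identical copies are uncertain. Symbols came from the GENCODE annotation of GRCm38 by gene identifier without version (48144 of 48526 matched).

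Genes were kept by filterByExpr (minimum count 10, minimum total 15), leaving 15523 genes and 99.96% of the counts. A quasi-likelihood model of the 4 group means was fitted to all 12 libraries with edgeR 4.0.16 in R 4.3.3, using TMM scaling and Benjamini-Hochberg adjustment over all genes kept. edgeR was the main test and DESeq2 1.42.0, which the study used, an alternative. On simulated counts (14934 genes, KO LPS against WT LPS), 90.5% of changes of 1 and 61.7% of changes of 0.5 on the log2 scale were recovered. The simulation used a common dispersion for all genes and groups, whereas the real WT LPS replicates stood furthest apart. It therefore does not give the recovery in the real data. Other alternatives were RLE and upper-quartile scaling, scaling without the 10 most-counted genes, no filter, a mean CPM of at least 1, protein-coding genes only, the compared groups only, a replicate block, the small RNA share as a covariate, and each library left out. The small RNA share did not overlap within any compared pair of groups, so a fit that holds it separates share and group poorly. Counting Acat2 and Acat3 as 1 gene and scaling by library totals without TMM factors were chosen after seeing the data.

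The sample labels give a batch that equals the replicate number, so same-numbered libraries are paired by label only. Over 18 such pairs, deviations from group means correlated with r of -0.0631 to 0.0373, and each batch holds 1 library per group. Replicates differed by more than counting noise (chi-square over degrees of freedom 3.74 to 41.8 over 12 pairs), and none was merged.

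The members and gene lists were chosen with earlier results of these data known. All 28 members are reported, with values by library for Srebf2, Insig1, Insig2 and for up to 6 members per contrast and direction with the largest changes among those past the threshold. Genes of other lists are named where they moved most in their list or are Srebf1, Fasn or Ch25h. Promoter windows were those of RefSeq. Figures were drawn with matplotlib 3.10.9. Intervals cover counting error and the spread between libraries only.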

Additional observations from a re-analysis of the deposited data

Results flagged for a closer look

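The response to LPS differed between KO and WT for 5 members by the interaction test of edgeR, and the values are log2 differences of KO minus WT. Lbr was at 0.49 (95% interval 0.27 to 0.72, adjusted p 0.00274). Tm7sf2 was at -0.75 (-1.15 to -0.36, adjusted p 0.00878). Insig1 was at -0.32 (-0.49 to -0.15, adjusted p 0.0103), Msmo1 at -0.27 (-0.43 to -0.10, adjusted p 0.0222) and Pmvk at -0.38 (-0.63 to -0.13, adjusted p 0.0331). In a fit that also held the share of small structured RNAs, these differences were 0.083 for Lbr, -0.55 for Tm7sf2, -0.74 for Insig1, -0.41 for Msmo1 and -0.35 for Pmvk, and of these 5 members only Insig1 passed the threshold in that fit. Of all genes, 2.49% passed there, against 16.8% in the main fit. The small structured RNAs themselves differed in this contrast (median log2 difference -2.40), so that fit separates their share from the interaction poorly.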

How the results depend on the processing

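Of 66 changes of members past the threshold, 26 were past it with the same sign in each of the 24 alternatives, namely 12 of 21 for LPS in WT, 13 of 22 for LPS in KO, 0 of 11 for genotype without LPS, 1 of 7 for genotype with LPS and 0 of 5 for the interaction. With the replicate block, the number of members past the threshold was 4 for genotype with LPS, and no other count moved by over 1.5 times, while the interaction of Pmvk also did not pass. For the same contrast it was 4 in the compared groups only and 2 with the small RNA covariate. This covariate, whose values did not overlap within any compared pair of groups, gave 4 without LPS and 3 for the interaction, where no filter also gave 3. With a fold change minimum of 1 on the log2 scale the numbers were 0, 0, 6, 7 and 0 for genotype with LPS, genotype without LPS, LPS in WT, LPS in KO and the interaction. In the same order, leaving out 1 library gave 1 to 7, 9 to 12, 19 to 21, 21 to 23 and 3 to 5 members, with medians of -0.01 to 0.04, 0.03 to 0.09, -0.03 to 0.06, -0.12 to -0.08 and -0.14 to -0.06. The median of the members moved by more than the spread between replicates under these alternatives: without LPS between genotypes to -0.024 with RLE scaling, -0.024 with DESeq2 and 0.31 with the covariate, for LPS in WT to 0.10 with protein-coding genes only, 0.10 with the covariate and -0.16 with upper-quartile scaling, for LPS in KO to -0.23 and -0.28 with the latter pair, and for the interaction to -0.020 with RLE scaling, -0.020 with DESeq2 and -0.34 with the covariate. Signs changed with the covariate for Hmgcs1 (0.47 between genotypes without LPS and -0.12 for LPS in KO), Lbr (0.011 between genotypes without LPS) and Insig2 (-0.38 for LPS in KO), and with upper-quartile scaling for Msmo1 (-0.0013 for LPS in WT) and Scap (-0.14 for LPS in KO). Library totals without scaling factors, chosen after seeing the data, moved the medians of the members to -0.64 for LPS in WT, -0.60 for LPS in KO, -0.10 for genotype without LPS and 0.056 for the interaction. They turned the sign of Fdft1 (-0.021), Fdps (-0.067), Ggps1 (-0.45), Hmgcs1 (-0.10), Insig2 (-0.62), Msmo1 (-0.48), Pmvk (-0.39), Sqle (-0.58) and Srebf2 (-0.053) for LPS in WT, of Fdft1 (-0.077), Ggps1 (-0.14), Hmgcs1 (-0.15), Insig2 (-0.27), Scap (-0.46) and Sqle (-0.47) for LPS in KO and of Scap (-0.14) for genotype without LPS. Another 141 sign changes concerned values past the threshold in neither fit. Upper-quartile scaling and library totals shifted the median of all genes, as did RLE scaling and DESeq2, by -0.071 and -0.071 for genotype without LPS and by 0.080 and 0.079 for the interaction, close to the moves of the members. The causes of the other changes were not tested.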
